A study of Mus musculus with 36 samples.

Results

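The miR-466, miR-467, miR-669 and miR-297 families of the mouse are repeat-derived microRNAs (miRs), most of them encoded as tandem copies inside an intron of Sfmbt2. Their members were chosen by name, as every mature miR of the deposited tables whose name is miR-466, miR-467, miR-669 or miR-297 followed by a letter, which gave 80 of 1907 mature miRs: 31 of miR-466, 13 of miR-467, 30 of miR-669 and 6 of miR-297. They were followed in cultured lung endothelial cells (ECs), in the medium conditioned by such cells and in blood plasma, and in each of these materials 9 libraries were made, 3 per genotype.

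Prog-Tg mice carried a tet-operon driven minigene of human lamin A with the mutation of Hutchinson-Gilford progeria (Cdh5TA+TetOp-LAG608G), from which both lamin A and its truncated form progerin are made. LA-Tg mice carried the matching minigene of wild-type human lamin A (Cdh5TA+TetOp-LA). In both transgenic lines the driver was a tetracycline transactivator under the endothelium-specific Cdh5 promoter, so that other cell types of the mice were not meant to express the minigene. WT mice were littermates without the transgene pair, and mice were kept on C57BL/6J by backcrossing, with a driver line of FVB origin, so that some FVB background can remain. ECs came from lungs of mice 10 to 15 days old, were enriched in repeated rounds with ICAM-2 beads and were harvested at passage 3. Plasma came from mice older than 25 weeks. The study's methods speak of littermate pairs of Prog-Tg and WT for plasma and for EC experiments, but neither they nor the labels say whether each sample came from its own mouse, so that p-values measure the spread between these samples.

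A miR is cut from a hairpin in the primary transcript, first by Drosha with Dgcr8 in the nucleus and then by Dicer in the cytoplasm, and is loaded as a single strand into an Argonaute protein. The strand from the 5′ side of the hairpin is the 5p arm and the strand from its 3′ side is the 3p arm. Target messages are recognised mainly through the seed, bases 2 to 8 of the mature strand. Sfmbt2 encodes a Polycomb-group protein and is known in the mouse for paternal expression in extraembryonic tissues, where the miRs of its intron are abundant.

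The RefSeq annotation of GRCm38.p6 held 81 hairpins of these names, and 71 of them lay inside Sfmbt2 on its own strand, at chr2:10466663-10518279, a stretch of 51617 bp. Sfmbt2 spans chr2:10370440-10595253 on the plus strand. The 71 hairpins fell in a single intron of 62472 bp (chr2:10461473-10523944) in 12 of the 15 annotated transcripts, and no hairpin touched an exon. The other 10 hairpins lay on chromosomes 3, 5, 7, 9, 10, 11 and 13. By mature name, 69 members were encoded only in the cluster, 10 only elsewhere, and miR-297a-5p in both places.

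The copies are repeats of each other, and 17 of the 80 mature strands were encoded by several hairpins. Single-locus members numbered 63, members with 2 loci 6, and members with 3 or more loci 11. Those with the most copies were miR-669a-5p with 12 loci, miR-669a-3p with 11 loci, and both arms of miR-467a with 10 loci each.

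RefSeq gave mature sequences for 8 of the 80 members, all of them encoded outside the Sfmbt2 intron. They are shown for their simple composition, with runs of alternating U and G or of alternating A and C. Each is written 5′ to 3′ with the seed in capitals.
miR-466i-3p: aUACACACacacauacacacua
miR-466j: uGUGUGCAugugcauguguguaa
miR-466k: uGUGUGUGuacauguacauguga
miR-466q: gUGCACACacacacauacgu
miR-467f: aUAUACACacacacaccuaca
miR-467g: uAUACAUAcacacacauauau
miR-467h: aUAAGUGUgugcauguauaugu
miR-669n: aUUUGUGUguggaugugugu

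No pair of these strands shared a seed. The 6-base run UGUGUG, searched on the mature strand only, was present in 4 of the 8, against 1.67% of the 1679 mature mouse strands in the same table. The run CACACA was present in 4 of the 8, against 0.715% of that table. G and U together made up 90.0% of the bases of miR-669n, 73.9% of miR-466j, 69.6% of miR-466k and 68.2% of miR-467h. A and C together made up 86.4% of miR-466i-3p, 85.7% of miR-467f, 71.4% of miR-467g and 70.0% of miR-466q.

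EC miR libraries held between 2015256 and 19288343 counts, with 4 at 13781817 or more (Prog-Tg replicates 1 and 3, LA-Tg replicate 1 and WT replicate 1) and 5 at 3736821 or fewer. By the library numbers of the sample descriptions, these 4 form an unbroken run and the 5 smaller ones another. What the numbers mark is not stated, so that it cannot be told apart from depth. Medium libraries held 266683 to 1137332 counts and plasma libraries 14922120 to 25373495. The endothelial miR-126a, 5p and 3p together, took 21.3% to 41.4% of EC counts, while the red-cell miRs miR-451a and miR-486a-5p were at 0.000435% or less there. In the poly(A) RNA libraries of ECs the endothelial markers Cdh5, Pecam1, Kdr and Tek were present in all 9 libraries. The epithelial markers Epcam, Cdh1 and Sftpc summed there to 0.289 counts per 1000000 counts or less (CPM, for poly(A) RNA always after TMM scaling, a factor per library from the trimmed mean of log ratios between libraries). The lymphatic markers Prox1, Lyve1, Flt4, Pdpn, Reln and Ccl21a were also high in sum, at 1430 to 7890 CPM over the 6 genes. Lyve1 was at 743 to 3530 CPM and Ccl21a at 6.58 CPM or less. The 5 fibroblast markers Dcn, Lum, Pdgfra, Col1a1 and Col1a2 summed to 98.2 to 826 CPM in Prog-Tg, 20.7 to 559 CPM in LA-Tg and 86.7 to 392 CPM in WT, with Dcn up to 408 CPM, Col1a1 up to 341 CPM and Lum at 0.274 CPM or less. Mouse Lmna, to which reads of the human minigene may also align, was at 275, 469 and 548 CPM in Prog-Tg, 251, 400 and 421 CPM in LA-Tg, and 283, 177 and 200 CPM in WT ECs, so that replicate 1 of each transgenic line overlapped WT.

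In ECs 56 of the 80 members had at least 1 count in some library, or 70.0%, against 67.9% of the other 1827 miRs. Only 20 were present in all 9 libraries and 24 were never counted, while 47 reached a total of 10 counts. The numbers present were 52, 48 and 37 in Prog-Tg libraries, 43, 31 and 36 in LA-Tg libraries, and 50, 38 and 30 in WT libraries. With every library drawn down to 2015256 counts, the expected numbers were 41.3, 41.9 and 27 in Prog-Tg, 30.3, 28.5 and 33.4 in LA-Tg, and 35.6, 32.7 and 30 in WT, so that the genotypes overlapped with and without this correction. A member with no count in any EC library may still be present at a level under 3 of 82116576 counts, and how reads that align in several places were counted is not given in the sources used here.

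The members with the most copies had no counts. All 4 members with 10 or more loci, miR-467a-5p, miR-467a-3p, miR-669a-5p and miR-669a-3p, were at 0 in all 27 miR libraries. Of the 7 members with 4 or more loci, 5 were never counted in ECs, and the other 2, miR-466b-5p and miR-297a-5p, had 34 and 16 counts. Of the 63 single-locus members, 17 were never counted. Whether a 0 of a many-copy member reflects its level or the handling of reads with several alignments was not tested.

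All members together took 38700 of 82116576 EC counts. Their share of a library was 0.0602%, 0.0444% and 0.0590% in Prog-Tg, 0.0378%, 0.0262% and 0.0711% in LA-Tg, and 0.0354%, 0.0359% and 0.0299% in WT ECs. The 3 Prog-Tg libraries stood above the 3 WT libraries, and LA-Tg spanned both. The widest 95% exact binomial (Clopper-Pearson) interval of a share ran from 0.0684% to 0.0739% (LA-Tg replicate 3). These intervals cover counting error only. After TMM scaling the shares were 0.0512%, 0.0456% and 0.0541% in Prog-Tg, 0.0327%, 0.0372% and 0.0637% in LA-Tg, and 0.0409%, 0.0489% and 0.0216% in WT, and the Prog-Tg and WT libraries overlapped, with WT replicate 2 above Prog-Tg replicate 2.

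**Figure D1:**
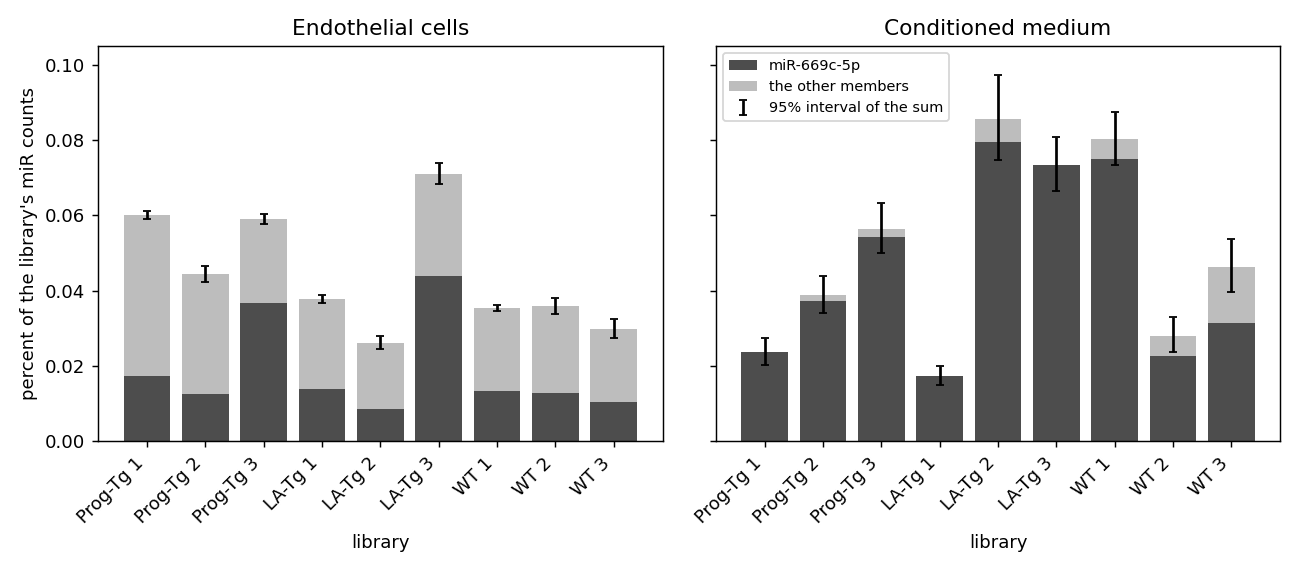
Share of each library's miR counts (percent) in the 80 members, for EC libraries (left) and conditioned medium (right). miR-669c-5p is in dark grey and all other members in light grey. Bars are single libraries and error bars are 95% exact binomial (Clopper-Pearson) intervals of the sum. miR-669c-5p takes 68.2% to 100% of the bar in medium (93.6% of member counts over all libraries) and 28.4% to 62.3% in ECs (41.1% over all libraries).

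The 4 families contributed unequally to the EC counts. miR-669 gave 53.7% of member counts, miR-467 27.2%, miR-466 10.9% and miR-297 8.13%. Between libraries the share of miR-669 ran from 44.7% to 69.7% and that of miR-467 from 16.4% to 33.1%. Members encoded only in the Sfmbt2 intron gave 99.4% of the counts and the 10 encoded elsewhere 0.602%.

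The strand from the 5p arm dominated, with 83.2% of member counts against 16.1% for the 3p arm and 0.695% for names without an arm. Of the 33 miRs with both arms in the tables, 27 had at least 10 counts over both arms, and the 5p arm was the higher in 19 and the 3p arm in 8. The preference was steep in abundant names: miR-669c had 15905 counts on 5p and 11 on 3p, and miR-467c 3562 and 16. It ran the other way for miR-466d, with 48 counts on 5p and 1931 on 3p, and for miR-669f, with 125 and 528. It was slight for miR-466n, with 48 counts on 5p and 38 on 3p and the 3p arm higher in 5 libraries and the 5p arm in 3, and miR-669e had 52 and 14. All 3 miR-297 names with both arms had more 3p than 5p in each of the 9 libraries.

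Counts were also uneven along the intron. In windows of 10 kb from the first hairpin, the 19 single-locus members of the first window gave 5538 counts, and the 6 of the second window gave 31. The third window held 11 hairpins and no single-locus member. The fourth window gave 4707 counts from 4 members, nearly all of them miR-467e-5p with 4610, and the fifth gave 23202 counts from 21 members, of which miR-669c-5p made up 15905. The last window, with 3 members, gave 54 counts.

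**Figure D2:**
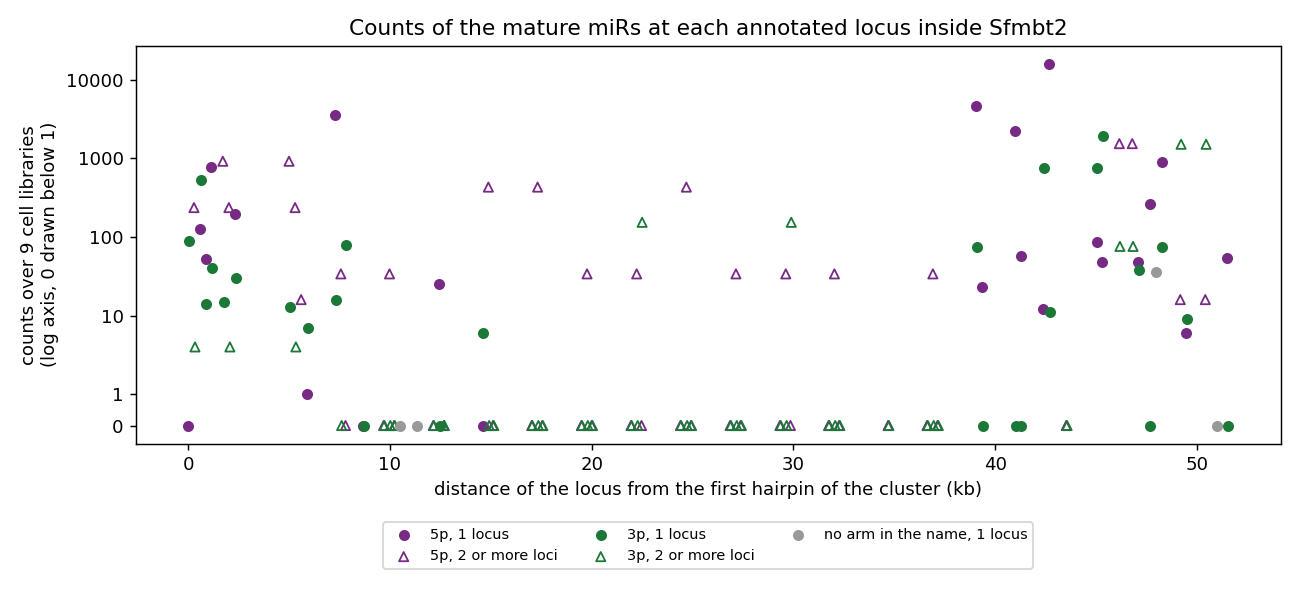
EC counts of members along the Sfmbt2 intron, plotted against distance in kb from the first hairpin. Counts concentrate in the first 10 kb (5538) and between 40 and 50 kb (23202), with 31 counts in the second window.

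miR-669c-5p was the most abundant member at rank 121 of the 1296 miRs with a count. Its raw counts were 3355, 472 and 5073 in Prog-Tg, 1983, 288 and 1586 in LA-Tg, and 2489, 447 and 212 in WT ECs. TMM-scaled, these were 148.0, 129.6 and 337.3 CPM in Prog-Tg, 119.1, 123.1 and 392.5 CPM in LA-Tg, and 155.7, 174.7 and 76.09 CPM in WT. The 2 highest values were Prog-Tg replicate 3 and LA-Tg replicate 3, and the groups overlapped. In these 2 libraries miR-669c-5p made up 62.3% and 61.6% of member counts, against 28.4% to 38.0% in the other 7, and miR-126a made up 21.7% and 21.3% of all counts, against 30.9% to 41.4%. The same-numbered poly(A) libraries had the 2 highest sums of fibroblast markers, 826 and 559 CPM, against 20.7 to 392 CPM in the other 7. The single markers did not all follow. In LA-Tg replicate 3 the sum was mostly Col1a1 (341 CPM) and Col1a2 (211 CPM). Dcn was at 4.49 CPM there, against 408 CPM in Prog-Tg replicate 3, and only WT replicate 2 was lower, at 0.816 CPM. Pdgfra was at 2.4 CPM in LA-Tg replicate 3, against 8.31 CPM in Prog-Tg replicate 3 and 5.78 CPM in WT replicate 3. The part of these differences in the result was not tested.

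The next members were miR-467e-5p, miR-467c-5p, miR-467d-5p and miR-466d-3p. miR-467e-5p averaged 62.8 ± 33.2 CPM in Prog-Tg, 38.6 ± 19.1 CPM in LA-Tg and 47.1 ± 32.2 CPM in WT ECs (TMM-scaled, SD, n = 3 each), with a range from 10.05 CPM in WT replicate 3 to 91.56 CPM in Prog-Tg replicate 1. miR-467c-5p varied least relative to its mean among the 10 highest members (42.2 ± 10.1 CPM over 9 libraries, unscaled). After TMM scaling it was at 39.21, 51.9 and 49.34 CPM in Prog-Tg, 43.3, 37.19 and 44.54 CPM in LA-Tg, and 34.34, 52.75 and 25.12 CPM in WT. miR-467d-5p was at 24.52, 20.87 and 28.86 CPM in Prog-Tg, 40.12, 20.52 and 27.96 CPM in LA-Tg, and 15.14, 19.15 and 27.63 CPM in WT. In all 3 cases each genotype overlapped the others on these TMM-scaled values. Unscaled, miR-467c-5p was at 46.1, 50.6 and 53.8 CPM in Prog-Tg and 29.7, 38.7 and 34.7 CPM in WT. Without the scaling its Prog-Tg libraries thus all stood above its WT libraries, while the other overlaps held.

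miR-466d-3p, the highest 3p member, averaged 24.5 ± 6.24 CPM in Prog-Tg, 19.6 ± 3.72 CPM in LA-Tg and 22.8 ± 9.03 CPM in WT (TMM-scaled, SD, n = 3 each). The remaining members of the 10 highest were miR-669m-5p, miR-297a-3p, miR-669d-5p, miR-466h-5p and miR-669b-5p, between 8.97 and 17.9 CPM on average without TMM scaling. Of these, miR-669m-5p, miR-297a-3p and miR-669d-5p have 2 loci each, and every EC count of theirs was a whole multiple of 2. The order was not corrected for locus number, so that their ranks may be too high. Per base of mature sequence the order of the 10 was kept except that miR-297a-3p, at 0.782 CPM per base, passed miR-669m-5p, at 0.778. In every EC library miR-669c-5p had the most counts of the 10, but its lowest level between libraries, 86.9 CPM, lay under the highest of miR-467e-5p, 108 CPM, and the ranges of all other neighbours in this order overlapped as well.

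**Figure D3:**
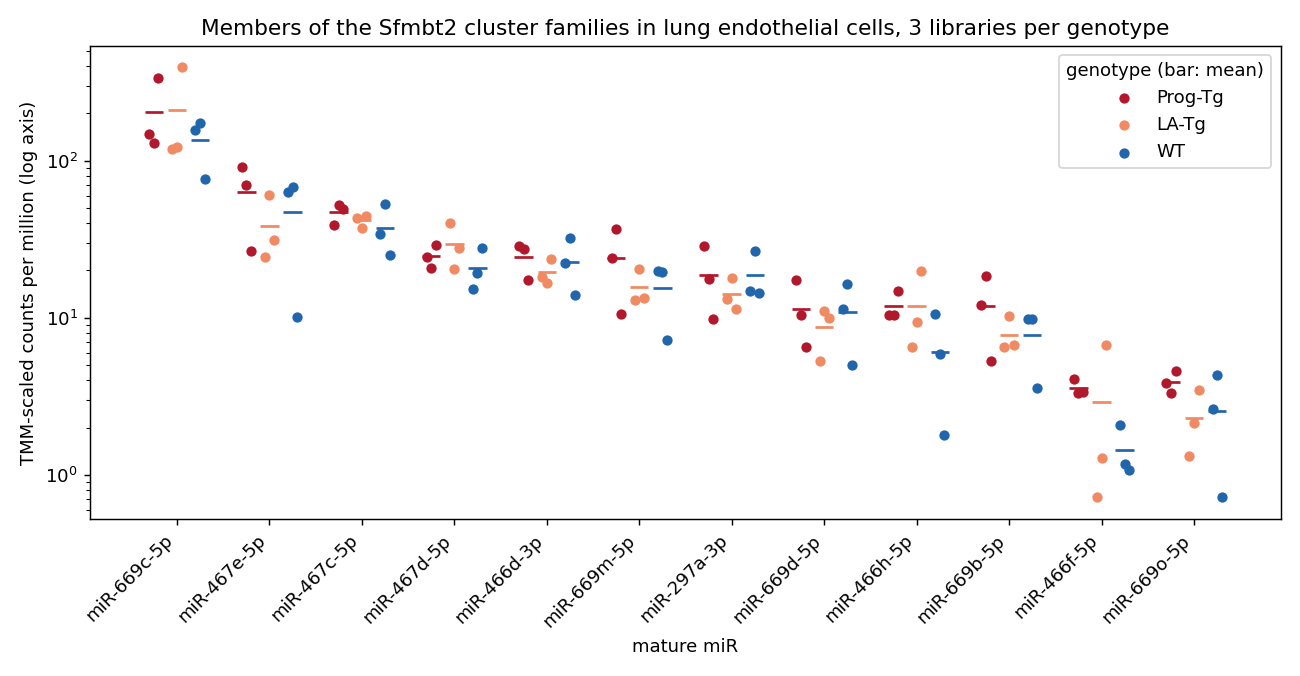
TMM-scaled level (CPM, log axis) of the 10 highest members, miR-466f-5p and miR-669o-5p in the 9 EC libraries, with a point per library and a bar at the mean of 3. miR-669c-5p is the highest member within every library, and the points of the genotypes overlap within each member except miR-466f-5p, whose Prog-Tg points all lie above its WT points.

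Several members did not carry independent measurements. In ECs, 9 of the 47 members with at least 10 counts (19.1%) belonged to a class whose count rows were identical or exact whole multiples of each other in all 9 libraries, against 5 of 852 other miRs (0.587%). miR-669m-5p had exactly 2 times the counts of miR-669b-5p in each library (1544 and 772 in all), with 2 loci to 1. miR-297a-3p had 1516 counts and miR-297b-3p and miR-297c-3p 758 each, with 2, 1 and 1 loci. miR-466f-5p had 237 counts to the 79 of miR-466f, with 3 loci to 1, and miR-466d-5p and miR-466n-5p had identical rows with 48 counts each and 1 locus each. In every class the multiple was the number of RefSeq loci.

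The counts of multi-locus members also came in steps of their locus number. All 7 members with 2 or 3 loci and at least 10 counts had every count a whole multiple of that number, as did 18 of the 47 other miRs with 2 or 3 loci, while of the 2 members with 4 or more loci none did. For miR-466f-5p the counts were 93, 12 and 51 in Prog-Tg, 12, 3 and 27 in LA-Tg and 33, 3 and 3 in WT, and the counts of miR-466f were 31, 4 and 17 in Prog-Tg, 4, 1 and 9 in LA-Tg and 11, 1 and 1 in WT. Keeping 1 row per class, the one with the most counts, gave a median share of 0.0355% of an EC library, against 0.0378% with all rows. A kept row of a member with 2 or 3 loci still held 2 or 3 times the counts of the smallest row of its class.

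**Figure D4:**
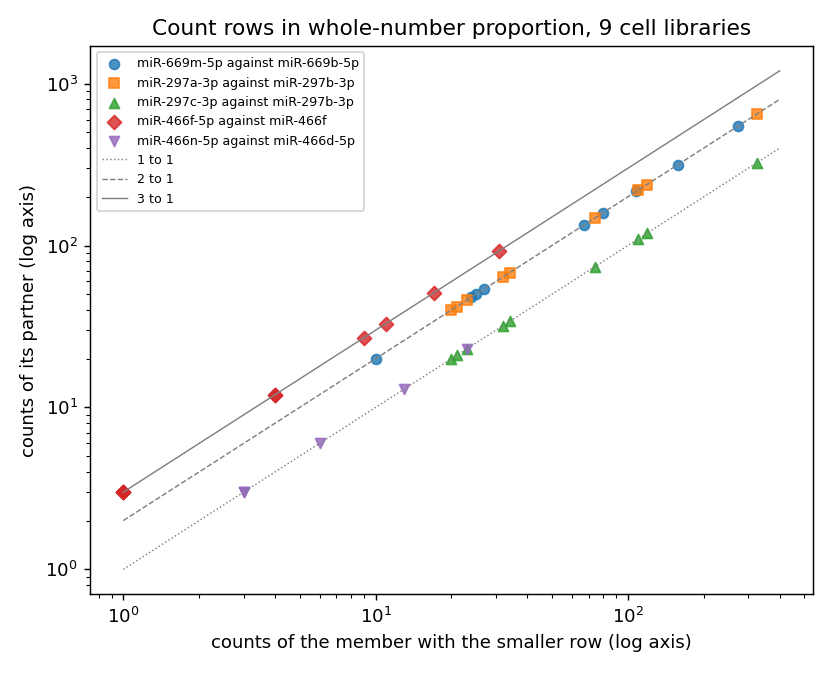
EC counts per library (log axis) of members in classes of identical or proportional rows, the smallest member of each class on the x axis and the others on the y axis. All points fall on lines of slope 1, 2 or 3.

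A further pair came close without qualifying. miR-669d-3p and miR-669d-2-3p had equal counts in 8 of 9 EC libraries and differed by 2 in the other one (a pair named after its values were seen). In medium, miR-297a-3p, miR-297b-3p and miR-297c-3p were in the same 2 to 1 to 1 proportion in the 2 libraries where they appeared, at 8, 4 and 4 counts in LA-Tg replicate 2 and 4, 2 and 2 counts in WT replicate 1. They are not a class there, since miR-297b-3p and miR-297c-3p, with 6 counts each, were below the minimum of 10 counts, while miR-297a-3p had 12.

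Between genotypes no member passed the test in ECs. Of the 446 miRs kept for testing, 17 were members, and with edgeR's quasi-likelihood test 0 of 17 passed a Benjamini-Hochberg adjusted p of 0.05 in any comparison. Of all 446 miRs, 0% were called at that threshold in each comparison. At an unadjusted p under 0.05, 0 of 17 members were called, against 1.35% of all miRs for Prog-Tg versus WT and 0.673% for each of the other comparisons, and DESeq2 and limma-voom also called 0 of 17 on either criterion. The 17 were those that passed the filter on low counts and do not stand for all 80.

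For Prog-Tg against WT, 16 of the 17 members had a log2 fold change above 0 (94.1%), against 50.9% of all 446 miRs. Their median was 0.32, from -0.11 to 1.25, against 0.01 for all miRs. Standard errors of the single members were 0.408 to 1.26, and the members, some with shared count rows, come from the same libraries and do not count as independent. Setting each library by its size alone moved the median of all miRs by 0.20, and under that scaling 17 of 17 members were above 0. The median of the members lay between 0.30 and 0.55 over 11 alternatives. Leaving out Prog-Tg replicate 1 gave 0.06, leaving out WT replicate 1 gave 0.15, leaving out Prog-Tg replicate 2 or WT replicate 3 gave 0.20, and leaving out WT replicate 2 gave 0.70, over 17 to 25 members kept by the filter.

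The members with the smallest p for Prog-Tg against WT were miR-466f-5p, miR-466h-5p and miR-669m-5p. miR-466f-5p was at 4.102, 3.295 and 3.391 CPM in Prog-Tg and 2.064, 1.172 and 1.077 CPM in WT ECs (TMM-scaled, as are the CPM values below unless stated). On this scale it was the only one of the 17 in which the Prog-Tg libraries all stood above the WT libraries, which was the case for 1.79% of all miRs. Unscaled, the same held for miR-467c-5p, miR-466h-5p and miR-669o-5p as well, and the share of all miRs was not counted. Unscaled values of miR-466h-5p were 12.2, 10.2 and 16.3 CPM in Prog-Tg and 9.09, 4.3 and 2.48 CPM in WT. For miR-466f-5p edgeR estimated the log2 difference at 1.25 with a standard error of 0.841 (adjusted p = 0.959). Its WT counts of 33, 3 and 3 are 3 times the 11, 1 and 1 counts of miR-466f. miR-466h-5p was at 10.41, 10.44 and 14.9 CPM in Prog-Tg and 10.51, 5.861 and 1.794 CPM in WT, which edgeR put at a log2 difference of 0.94 ± 0.675 (standard error). Over the libraries left out this ran from 0.64 (without WT replicate 3) to 1.62 (without WT replicate 1). For miR-669m-5p it was 0.61 ± 0.581, with 24.08, 36.8 and 10.64 CPM in Prog-Tg and 19.77, 19.54 and 7.178 CPM in WT, and it ran from 0.20 (without Prog-Tg replicate 2) to 0.96 (without WT replicate 2).

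When LA-Tg was set against WT, fewer members were on the positive side. Of the 17 members, 6 had a log2 fold change above 0 (35.3%), against 52.9% of all miRs, and the median was -0.17, against 0.05 for all. Scaling by library size alone put 9 of 17 above 0 and the median at 0.05, and the direction also turned without LA-Tg replicate 1 (0.08), WT replicate 1 (0.01) or WT replicate 2 (0.11). miR-466h-5p was highest at 0.94 (standard error 0.679), followed by miR-466f-5p at 0.92 (standard error 0.857). For miR-466h-5p the value was 0.26 without LA-Tg replicate 3, 0.43 without WT replicate 3 and 1.62 without WT replicate 1. miR-467d-5p, with the second smallest p, stood at 0.53 (standard error 0.440), and at 0.20 to 0.70 with a library left out. For miR-466f-5p the difference changed sign when LA-Tg replicate 3 was left out, with values from -0.75 to 1.41 over the libraries left out, and that library held 27 counts, against 12 and 3 in the other 2.

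Prog-Tg was set against LA-Tg to compare the mutant with the wild-type minigene. Here 14 of 17 members were above 0 (82.4%), against 44.2% of all miRs, with a median of 0.40 against -0.10. That median was 0.15 when Prog-Tg replicate 1 was left out, 0.70 when Prog-Tg replicate 3 was and 0.75 when LA-Tg replicate 3 was. The smallest p was that of miR-669o-5p, at 3.837, 3.295 and 4.588 CPM in Prog-Tg and 1.321, 2.138 and 3.464 CPM in LA-Tg, and its log2 difference was 0.79 ± 0.704 (standard error; edgeR's adjusted p = 0.982), with 0.49 to 1.42 over the libraries left out, the highest without LA-Tg replicate 3. miR-669m-5p and miR-669b-5p, whose rows are in proportion, both stood at 0.61. Both comparisons use the same Prog-Tg libraries, and the 2 comparisons with WT the same WT libraries, so that their values are not independent. Without LA-Tg replicate 3 the log2 fold change of miR-466f-5p was 2.12, at an adjusted p of 0.982 by edgeR.

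**Figure D5:**
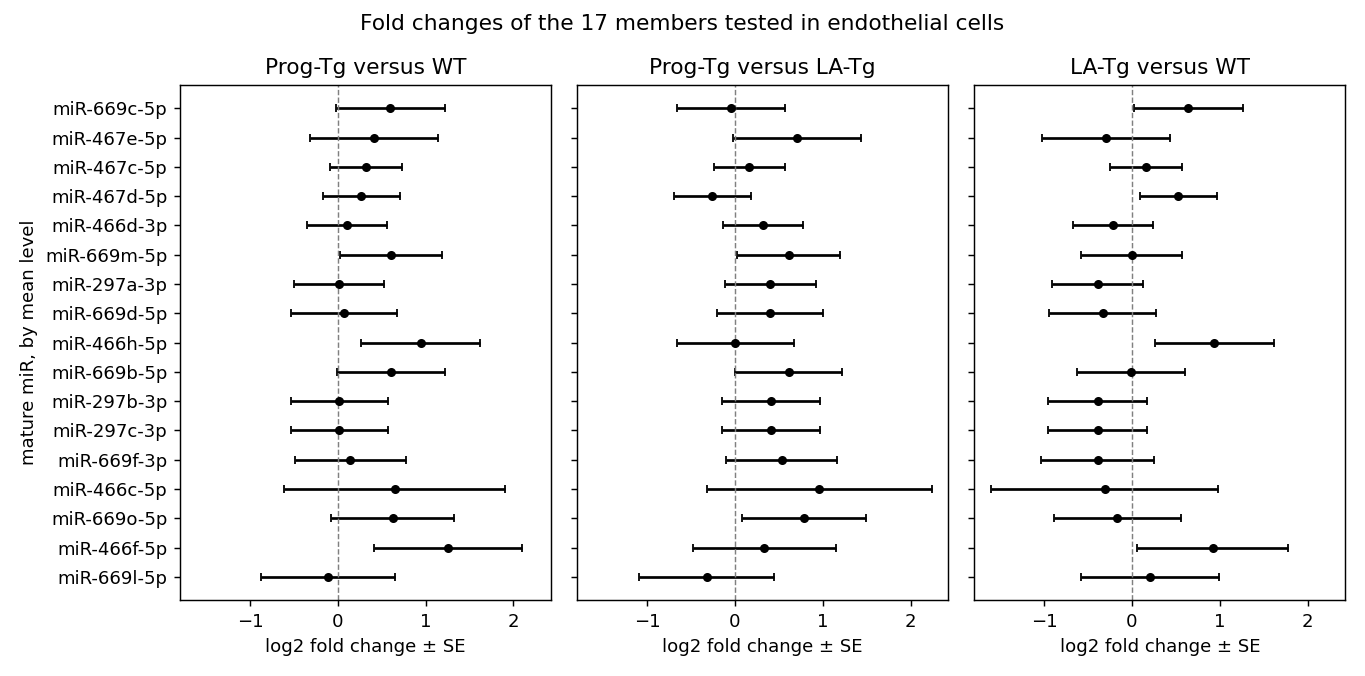
log2 fold change with standard error of the 17 members tested in ECs, for Prog-Tg versus WT, Prog-Tg versus LA-Tg and LA-Tg versus WT. In these panels 16, 14 and 6 of the 17 points lie above 0, and no member passed the test.

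Among the members under the filter, miR-466k, which is encoded on chromosome 3 outside the cluster, had the largest bound of those with a genotype at 0 in all 3 libraries. It had 14, 2 and 5 counts in Prog-Tg, 0 in each LA-Tg library and 9, 1 and 0 counts in WT ECs. Against a floor of 3 counts over the 3 LA-Tg libraries, it was at least 4.06-fold higher in Prog-Tg and at least 2.97-fold lower in LA-Tg than in WT. The first bound was 1.32 without LA-Tg replicate 1 and 2.84 to 4.94 without 1 of the other 5 libraries. For the second, no bound above 1 was left without LA-Tg replicate 1, and none was drawn without WT replicate 1, which held 9 of the 10 WT counts. With no filter on low counts edgeR gave unadjusted p-values of 0.00868 for Prog-Tg versus LA-Tg (adjusted p = 0.662) and 0.0193 for LA-Tg versus WT (adjusted p = 0.975). miR-466k and miR-466q were chosen here after their values were seen. miR-466q, on the same chromosome, was the most counted of the members encoded elsewhere, with 17, 3 and 2 counts in Prog-Tg, 67, 3 and 9 in LA-Tg and 15, 1 and 0 in WT.

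In conditioned medium, detection was confined to a few members. Of the 80 members, 11 had a count in some library (13.8%), against 35.0% of the other 1827 miRs, and only miR-669c-5p was present in all 9. The members present numbered 1, 2 and 2 in Prog-Tg libraries, 1, 4 and 1 in LA-Tg libraries, and 7, 3 and 7 in WT libraries. WT replicates 1 and 3 were also the libraries with most other miRs present, at 21.6% and 24.8% of the 1827, against 10.6% to 15.7% in the other 7. The part of this difference in the count of members was not tested. Medium held serum, and medium and plasma libraries were made with another kit than EC libraries, so that kit and material cannot be told apart and levels are given side by side.

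miR-669c-5p ranked 76 of 651 miRs in medium. Its counts were 182, 240 and 273 in Prog-Tg, 197, 212 and 425 in LA-Tg, and 479, 118 and 118 in WT. As a share of library counts it was at 237, 373 and 543 CPM in Prog-Tg, 173, 795 and 734 CPM in LA-Tg, and 749, 227 and 316 CPM in WT, so that the groups overlapped throughout. On the log2 scale the differences were 0.29 ± 0.721 (standard error) for Prog-Tg versus WT, 0.58 ± 0.723 for LA-Tg versus WT and -0.29 ± 0.721 for Prog-Tg versus LA-Tg. Under library size alone the first of these was -0.17, and it was -0.05 without WT replicate 3 and 0.81 without WT replicate 1, so its direction was not stable.

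The libraries with the lowest member shares in medium were also those with the most red-cell miRs. miR-451a and miR-486a-5p together took 17.2% of Prog-Tg replicate 1, 16.1% of LA-Tg replicate 1 and 12.7% of WT replicate 2, against 0.201% to 4.94% of the other 6. The share of all members in these 3 libraries was 0.0237%, 0.0173% and 0.0281%, the 3 lowest of the 9, and the median was 0.0463%. The part of red-cell miRs in the member shares was not tested.

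miR-467c-5p was the second member tested in medium. Its counts were 0, 10 and 11 in Prog-Tg, 0, 0 and 0 in LA-Tg, and 18, 9 and 16 in WT. Against a floor of 3 counts over the LA-Tg libraries it was at least 18.5-fold lower in LA-Tg than in WT and at least 7.25-fold higher in Prog-Tg than in LA-Tg. With 1 library left out the first bound ran from 7.91 (without LA-Tg replicate 1) to 22.2, and the second from 3.09 (without LA-Tg replicate 1) to 12.1 (without Prog-Tg replicate 1), with 4.68 without Prog-Tg replicate 3. After TMM scaling it was at 0, 14.01 and 17.89 CPM in Prog-Tg, 0 in each LA-Tg library and 21.22, 23.55 and 22.68 CPM in WT. On this scale both transgenic genotypes lay below WT without overlap, as did 5.1% of the miRs tested for Prog-Tg and 6.27% for LA-Tg. Prog-Tg and LA-Tg overlapped. Unscaled, miR-467c-5p was at 0, 15.5 and 21.9 CPM in Prog-Tg and 28.1, 17.3 and 42.8 CPM in WT. Without the scaling, Prog-Tg and WT thus overlapped. It was the only member that edgeR, fitted across all miRs, put below an unadjusted p of 0.05, with an adjusted p of 1 for LA-Tg versus WT and an adjusted p of 0.849 for Prog-Tg versus LA-Tg. At that level 1.57% of the 255 miRs tested were called for Prog-Tg versus WT, where 0 of the 2 members were, 3.14% for LA-Tg versus WT and 5.88% for Prog-Tg versus LA-Tg, and at an adjusted p of 0.05, 0% in all 3 comparisons.

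The fitted fold changes of miR-467c-5p depend on the prior count and are not given. With 0 counts in LA-Tg, it passed the filter through Prog-Tg and WT libraries. The fit restricted to the pair of genotypes kept it for Prog-Tg versus WT alone. That fit gave no value for LA-Tg versus WT or for Prog-Tg versus LA-Tg. For LA-Tg versus WT, 5 of 7 alternatives were below 0.05 before adjustment, among them DESeq2 (adjusted p = 0.997) and limma-voom (adjusted p = 0.758), and edgeR with no filter was not (adjusted p = 0.69). With 1 library left out edgeR was below 0.05 before adjustment in 1 of 6 fits, the one without WT replicate 2, and the adjusted p was 0.52 to 1. For Prog-Tg versus LA-Tg neither tool was below 0.05 even before adjustment, and nor was edgeR with the replicate number as a block, in which same-numbered medium libraries of these 2 genotypes are taken as pairs (adjusted p = 0.997). There 2 of 7 alternatives were below 0.05 before adjustment, and 1 of 6 edgeR fits with a library left out, the one without Prog-Tg replicate 1 (adjusted p = 0.702). The other 9 members of medium had counts in at most 2 libraries each: miR-467e-5p had 15 counts in WT replicate 3 and miR-297b-5p 19 counts in WT replicate 2, and neither appeared elsewhere.

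In plasma 2 of the 80 members had a count (2.5%), against 15.4% of the other miRs, and none passed the filter, so that none of the 118 miRs tested was a member. miR-669c-5p had 119 counts, 7.07 CPM, in LA-Tg replicate 1 and 0 in each of the other 8 libraries. miR-467c-5p had 2 counts in LA-Tg replicate 3. A count of 0 in a plasma library allows a level of up to 0.118 to 0.201 CPM, since 3 counts is the limit. The other 78 members had no count in any plasma library.

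The host gene was measured in the poly(A) RNA of ECs. Sfmbt2 was at 9.93, 12.9 and 11.5 CPM in Prog-Tg, 5.68, 16.8 and 5.49 CPM in LA-Tg, and 7.06, 6.48 and 9.74 CPM in WT. The 3 Prog-Tg values lay above those of WT, as for 6.56% of all genes, while LA-Tg replicate 2 was the highest of all 9. By edgeR on 14584 genes the log2 difference was 0.56 ± 0.437 (standard error) for Prog-Tg versus WT, with an adjusted p of 0.83. It was 0.26 ± 0.437 for LA-Tg versus WT and 0.30 ± 0.436 for Prog-Tg versus LA-Tg, and without LA-Tg replicate 2 these were -0.48 and 1.03. Leaving out LA-Tg replicates 1 and 3 in turn gave 0.51 and 0.52 for LA-Tg versus WT and 0.04 and 0.03 for Prog-Tg versus LA-Tg. The 3 libraries with the highest Sfmbt2 were LA-Tg replicate 2 and Prog-Tg replicates 2 and 3. They had the lowest sums of lymphatic markers, 1430, 1520 and 2440 CPM, against 4740 to 7890 CPM in the other 6. Prox1, Lyve1 and Flt4 were each lowest in these 3 libraries. Pdpn and Reln were not: Prog-Tg replicate 3 had 574 and 40.3 CPM, against 433 and 22.6 CPM in Prog-Tg replicate 1. The part of the lymphatic markers in the Sfmbt2 level was not tested, and whether the poly(A) and miR libraries of 1 number came from the same culture is not stated.

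The genes that make and carry miRs did not pass the test either. Drosha, Dgcr8, the export factor Xpo5, Dicer1, its partner Tarbp2 and the Argonautes Ago1 to Ago4 were all measured, and 0 of the 9 passed an adjusted p of 0.05 by edgeR, DESeq2 or limma-voom in any comparison. Of all genes 0% passed by edgeR. Ago2 alone was under an unadjusted p of 0.05, as were 0.83% of all genes, for LA-Tg versus WT. It was at 189, 207 and 148 CPM in LA-Tg, against 221, 234 and 239 CPM in WT. The log2 difference was -0.35 ± 0.151 (standard error), with an edgeR adjusted p of 1. Drosha was at 60.8 to 81.6 CPM in Prog-Tg, 63.8 to 78.3 CPM in LA-Tg and 73.1 to 85.5 CPM in WT ECs.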

How the data were processed

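Small-RNA libraries of ECs were made with the QIAseq miRNA kit, those of medium and plasma with the CleanTag kit, and poly(A) libraries with the NEBNext Ultra II directional kit. For alignment the authors used STAR 2.5.1b with its 2-pass option on GRCm38 with a Gencode annotation, and HTSeq 0.5.4p3 for counting. The deposited values are raw counts, not normalized, and the source of the mature miR annotation and the treatment of reads with several alignments are not given in the sources used here. The authors' comparison tables, which hold fold changes and p-values, were not used. Every value column could be matched to a sample (0 columns were not).

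Groups came from the sample labels. Each material was fitted separately with all 9 libraries in edgeR 4.0.16 (R 4.3.3): features kept by filterByExpr (minimum count 10, minimum total 15), TMM scaling, quasi-likelihood F test by genotype, and Benjamini-Hochberg adjustment over all features kept, with calls at an adjusted p under 0.05. CPM is counts per 1000000 counts of the library, and TMM-scaled CPM also divides by the TMM factor. Shares have 95% exact binomial (Clopper-Pearson) intervals. A group at 0 was set at a floor of 3 counts over the group. A member was present in a library with at least 1 count. Loci and sequences came from RefSeq on GRCm38.p6. The scripts were tested on simulated counts. Other software was limma 3.58.1, DESeq2 1.42.0, Python 3.11.15, pandas 2.3.3, SciPy 1.17.1 and matplotlib 3.10.9.

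Members named with values were the 10 highest in ECs, the 3 with the smallest p in each EC comparison, the 5 highest in medium, those with plasma counts, those in classes of shared rows, and Sfmbt2. Other members given with values (miR-466k, miR-466q, examples of arms, copy number and position) were chosen after their values were seen. A class needed at least 10 counts in each member and counts in 2 or more libraries. The members and lists were chosen with earlier results of these data known. Alternatives were DESeq2, limma-voom, RLE scaling, library size alone, no filter, over 10 CPM in 3 libraries, a fit restricted to the pair of genotypes, a block for the replicate number, only the largest row kept of each class of shared rows, each library left out and, chosen after seeing the data, a term for the 4 deep EC libraries, alone and with the block.

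Groups share replicate numbers in the labels, and nothing in the labels says what a number marks; the study's methods name littermate pairs of Prog-Tg and WT, without tying them to a number. Same-numbered EC miR libraries deviated together for Prog-Tg and WT (correlations 0.65, 0.56 and 0.43) and for Prog-Tg and LA-Tg (0.56, 0.73 and 0.68), as did medium libraries of Prog-Tg and LA-Tg (0.46, 0.11 and 0.11) and poly(A) libraries of Prog-Tg and LA-Tg (0.67, 0.63 and 0.35), so these were taken as paired by the data. In the other comparisons at least 1 of 3 correlations was 0.1 or less. Fold changes, standard errors and p-values are those of the fit without a block unless the block is named.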

Additional observations from a re-analysis of the deposited data

How the results depend on the processing

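No member passed an adjusted p of 0.05 in any of the 11 alternatives to each EC comparison, nor when single libraries were left out, and the same held in medium. The median log2 fold change of the members tested in ECs lay between 0.30 and 0.55 for Prog-Tg versus WT (0.06 to 0.70 with a library left out), between -0.26 and 0.09 for LA-Tg versus WT (-0.44 to 0.11), and between 0.34 and 0.70 for Prog-Tg versus LA-Tg (0.15 to 0.75). With a replicate block the medians were 0.33, 0.09 and 0.36, so that the LA-Tg versus WT median changed sign, as it did by library size alone (0.05) and with the depth term added to the block (0.02), and the block changed no call at an adjusted p of 0.05. With the block, edgeR put 32, 14 and 27 of the 446 miRs under an unadjusted p of 0.05 in these 3 comparisons, against 6, 3 and 3 without it. Of the 17 members, 0 were among them in each comparison. Over the alternatives and the fits with a library left out, 94 of 1184 fold changes had another sign than the one reported, none of them called. These values cover the named EC members, the members tested in medium, Sfmbt2 and the genes that make and carry miRs. For the EC members alone, 19 of 230 values changed sign for Prog-Tg versus WT. It was 24 of 228 for LA-Tg versus WT and 17 of 230 for Prog-Tg versus LA-Tg. For miR-467c-5p in medium, LA-Tg versus WT, edgeR with the replicate block was above 0.05 before adjustment (adjusted p = 0.987), where the numbers are not taken as pairs. The median number of members present in an EC library depended on the count required: 38 with at least 1 count, 24 with at least 5 and 18 with at least 10. In plasma only the fit with no filter on low counts kept members (2, of which 0 were called), and the other alternatives gave no value there. Depth limits the low members: 1 count was worth more in the 5 shallow EC libraries than in the 4 deep ones, and in medium 9 of the 11 members seen were under the filter.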
